A study of Homo sapiens with 6 samples.

Results

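The AP-1 family and the immediate early genes measured with it were FOS, FOSB, FOSL1, FOSL2, JUN, JUNB, JUND, ATF3, EGR1 and IER3. They were taken as every probe set (a group of short array probes for 1 transcript) whose only gene symbol in the platform annotation is 1 of these 10 names. This gave 24 probe sets of 10 genes, out of 54613 probe sets and 19775 genes on the array without its control probe sets. The RNA was total RNA of MDA-MB-231, a human breast cancer line of mesenchymal-like character long kept in culture, which carried a lentivirus in both groups and had been sorted for green fluorescent protein (GFP). The group labelled GATA3 (3 arrays) received a virus for GATA3, a transcription factor of luminal mammary cells, together with enhanced GFP, and the GFP control (3 arrays) a virus for enhanced GFP alone. Cells of both groups grew in medium with 10% serum, and RNA was taken 2 days after seeding, so the values describe growing cultures and not the hours after a stimulus. The promoter of the virus is not stated in the labels, nor is it stated that the replicates were separate cultures. P-values therefore measure the spread between arrays, which may be technical, and 3 arrays per group limit the precision.

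AP-1 is a pair of basic leucine zipper (bZIP) proteins bound to DNA. JUN proteins can pair with each other or with a FOS protein, while FOS proteins need a JUN partner. FOS, FOSB, JUN, JUNB, EGR1 and IER3 are immediate early genes, which growth factors and stress switch on within minutes through mitogen-activated protein kinases, without new protein synthesis. FOSL1, which encodes Fra-1, is known as a strongly expressed AP-1 subunit of mesenchymal-like, hormone receptor negative breast cancer cells.

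The labels were checked first. Brightness is given as a GCRMA expression value read as log2, so that 1 unit is a doubling, and a value of 4 was taken as the detection level. The brightest GATA3 probe set read 7.93, 7.94 and 7.32 in the arrays labelled GATA3 (replicates 1 to 3), against 9.37, 9.35 and 9.45 in the GFP control. GATA3 was thus lower, not higher, in the arrays that carry its name (log2 change -1.66, SE 0.18, limma adjusted p = 0.00238). It was not tested whether these probe sets can read the introduced sequence. Every direction given here compares the arrays that carry the GATA3 label with the GFP control and depends on those labels. Of the defining genes of the line, VIM, CD44, CAV1 and AXL were bright in both groups, and VIM was itself lower (log2 change -0.32, limma adjusted p = 0.0158). Of the genes for the receptors that the line is known to lack or hold at low level, PGR stood at the floor of 2.16 in both groups and ESR1 averaged 4.16 in the arrays labelled GATA3 and 4.02 in the GFP control, barely over detection. ERBB2 lay well over detection, at 9.40 in the arrays labelled GATA3 and 9.56 in the GFP control, and did not pass (limma adjusted p = 0.261). CDH1, which encodes E-cadherin and is known as silent in this line, averaged 7.40 in the arrays labelled GATA3 and 2.35 in the GFP control. PTPRC, CD3E, PECAM1 and CDH5, markers of blood and endothelial cells, were under the detection level on all arrays. Replicate 3 of the arrays labelled GATA3 stood apart. It alone has a raw file of a second date, its 75th percentile was 7.78 where the remaining 5 had 7.97 to 8.05, and it correlated with the other arrays of its group at 0.984 and 0.986, where they correlated with each other at 0.997.

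The upstream sequences of JUN, JUND and EGR1 are shown, which held matches to elements of AP-1, CREB/ATF or serum response factor (SRF). ATF3 also held such a match, TGACATCA, upstream of its outermost start and is not shown. The sequences shown were picked for their matches and do not stand for the whole gene family. JUN and JUND fell in these data, and EGR1 did not pass the test. Each run is the 250 bases before the gene's start, 5′ to 3′ on the gene's own strand, from RefSeq (GRCh38.p14), and capitals mark the matches to the motifs searched.
JUN (chr1:58784048-58784297, minus strand): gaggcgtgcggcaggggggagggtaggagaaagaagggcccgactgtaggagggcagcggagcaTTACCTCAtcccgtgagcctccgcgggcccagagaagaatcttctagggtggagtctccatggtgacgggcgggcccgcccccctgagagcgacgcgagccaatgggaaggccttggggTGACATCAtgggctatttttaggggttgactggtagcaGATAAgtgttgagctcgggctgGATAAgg
JUND (chr19:18281623-18281872, minus strand): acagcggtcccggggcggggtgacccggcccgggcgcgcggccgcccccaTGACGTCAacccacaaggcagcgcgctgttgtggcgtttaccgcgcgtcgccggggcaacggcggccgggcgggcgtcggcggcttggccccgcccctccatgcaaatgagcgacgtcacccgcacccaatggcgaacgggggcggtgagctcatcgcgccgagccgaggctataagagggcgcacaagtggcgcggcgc
EGR1 (chr5:138465229-138465478, plus strand): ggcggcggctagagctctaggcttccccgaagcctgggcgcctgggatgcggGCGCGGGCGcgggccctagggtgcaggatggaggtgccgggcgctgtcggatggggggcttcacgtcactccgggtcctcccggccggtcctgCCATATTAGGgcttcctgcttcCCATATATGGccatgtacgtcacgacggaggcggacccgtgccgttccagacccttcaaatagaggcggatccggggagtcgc

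Motifs were searched on both strands, and no marked matches overlap. The motifs were the AP-1 element TGANTCA, the CREB/ATF element TGACGTCA, the JUN promoter elements TGACATCA and TTACCTCA, the EGR element GCGNGGGCG, the CArG box bound by SRF, and the letters GATAA of a GATA factor site. JUN held TTACCTCA 186 to 179 bases and TGACATCA 67 to 60 bases before its start. These are known as the sites through which JUN with ATF2 acts on the JUN gene itself, and 3% of 35116 RefSeq windows of this length hold either. GATAA also lay 29 to 25 and 7 to 3 bases before the start of JUN, and 20.4% of the windows hold it. GATAA replaced a longer form of the site, with A or T before it and A or G as its last base, after the matches of that form had been seen. The longer form matched 1 time in the JUN window, at the match farther from the start, and 22.3% of windows hold it. These letters were not particular to JUN: of the 2 ATF3 windows in the table, the one upstream of the outermost start held TGACATCA 123 to 116 and GATAA 30 to 26 bases before it, and neither held the longer form. JUND held TGACGTCA 200 to 193 bases before its start, a match found in 1.65% of windows. EGR1 held 2 CArG boxes, 105 to 96 and 83 to 74 bases before its start, against 1.16% of windows with any, and an EGR element, which 8.41% hold. TGANTCA, which 6.57% of windows hold, was not found in the windows of the members matched. The windows of FOS, FOSB, FOSL2 (which fell) and JUNB held no match to any motif searched. FOSL1 and IER3 had no entry in the table. A match describes the letters and not binding, which was not measured.

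The AP-1 members that changed were FOSL1, FOSL2, JUN and JUND, and all 4 were lower in the arrays labelled GATA3. With the brightest tested probe set standing for each gene, 4 of the 8 genes with a tested probe set fell, none rose at a limma adjusted p under 0.05, and 4 did not pass. At an unadjusted p under 0.05, 1 gene (ATF3) was higher. Over all genes tested with the same fit, 29.3% were called and 14.5% were called lower. FOS and FOSB had no probe set over the detection level and were not tested. Over single probe sets, 10 of 19 tested fell, 1 rose and 8 did not pass, against 25.3% called of all tested, 14.0% lower and 11.3% higher. Of the 10 that fell, 5 read FOSL2 and 3 read JUN, so the counts and medians over probe sets repeat a few genes. The tested probe sets of the members had a median log2 change of -0.56, against -0.05 over all 23785. By 1 probe set per gene the median was -0.24 for the 8 members and -0.02 over all 10814 genes. The groups did not overlap in 14 of the 19 probe sets, 12 of them lower, against 46.0% of all tested, 28.0% lower. By 1 probe set per gene they did not overlap in 5 of the 8, against 49.5% of all genes tested. Of the 19, 18 lay over the detection level on all 6 arrays, so the filter on low values did not select them through 1 group. In bulk RNA, fewer cells with a transcript cannot be told from less transcript per cell.

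**Figure D1:**
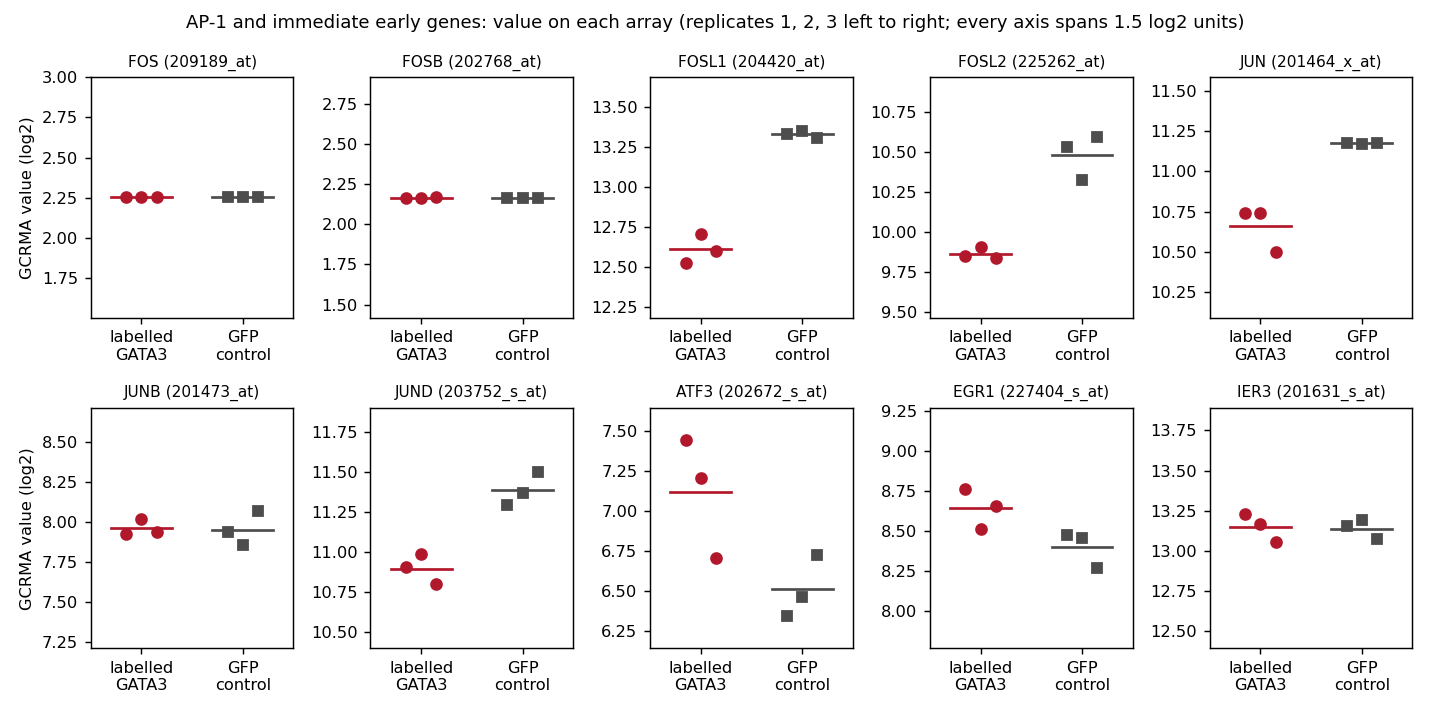
GCRMA value (log2) on each array for the brightest probe set of each of the 10 genes. Circles are the 3 arrays labelled GATA3, squares the 3 GFP control arrays, bars the group means, and every vertical axis spans 1.5 log2 units. FOSL1, FOSL2, JUN and JUND are lower on each array labelled GATA3, FOS and FOSB lie at the background in both groups, and JUNB and IER3 overlap.

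Among the FOS subunits, FOS itself, the prototype member of the family (chromosome 14, 75278828 to 75282230 in GRCh38.p14, as for all gene positions here), read 2.25 on all 6 arrays. FOSB, its close relative (chromosome 19, 45467996 to 45475179), read 2.16 to 2.17 on all 6. Both probe sets thus stood at the array's background in both groups, and no fold can be given. Neither value shows that the gene is silent, since each rests on 1 probe set.

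FOSL1, the Fra-1 gene (chromosome 11, 65892049 to 65900545), read 12.52, 12.71 and 12.60 in the arrays labelled GATA3, against 13.33, 13.35 and 13.31 in the GFP control. All arrays labelled GATA3 were lower, and the groups lay apart by more than the spread within either. The means were 12.61 ± 0.09 in the arrays labelled GATA3 and 13.33 ± 0.02 in the GFP control (SD, n = 3 each). The log2 change was -0.72 (SE 0.05, 95% interval -0.85 to -0.59), 1.64-fold lower, with a limma adjusted p = 0.000532. Of the 10814 genes tested, 5.66% had a lower log2 change.

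FOSL2 encodes Fra-2, a FOS-related subunit that lacks the strong activation domain of FOS (chromosome 2, 28392858 to 28417317). It was measured by 5 probe sets, and all 5 were lower in the arrays labelled GATA3 with no overlap between groups. The brightest (225262_at) read 9.85, 9.91 and 9.84 in the arrays labelled GATA3, against 10.53, 10.32 and 10.60 in the GFP control. The log2 change was -0.62 (SE 0.08, 95% interval -0.82 to -0.42), 1.54-fold lower, with a limma adjusted p = 0.00432. The 4 other probe sets changed by -0.64 to -1.25 on the log2 scale, up to 2.38-fold lower, with limma adjusted p-values of 0.00455 to 0.0254. The widest change was that of 228188_at, with 8.91, 9.01 and 8.43 in the arrays labelled GATA3 and 9.93, 10.06 and 10.11 in the GFP control. In that probe set, in 218880_at and in 205409_at, replicate 3 was the lowest of the arrays labelled GATA3, while in 218881_s_at it was the highest. The size of the FOSL2 fall therefore differed between its probe sets, and the direction did not. The call of 218881_s_at was lost without replicate 1 or 2 of the arrays labelled GATA3 (adjusted p = 0.0618 and 0.0630), and without GFP control replicate 1 or 3 (0.0665 and 0.0803).

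JUN (chromosome 1, 58780791 to 58784047) encodes the main partner of FOS proteins. Its brightest probe set (201464_x_at) read 10.74, 10.74 and 10.50 in the arrays labelled GATA3, against 11.18, 11.17 and 11.18 in the GFP control. All arrays labelled GATA3 were lower, replicate 3 most. Replicates 1 and 2 of the arrays labelled GATA3 gave the same value, so the level there and the fold of this probe set are uncertain. The log2 change was -0.51 (SE 0.08, 95% interval -0.70 to -0.33), 1.43-fold lower, with a limma adjusted p = 0.00649. The suffix _x_at marks probes that can also bind unrelated transcripts, so this reading is less certain to be JUN alone. Another probe set (201465_s_at) read 7.91, 7.86 and 7.07 in the arrays labelled GATA3, against 8.75, 9.27 and 8.87 in the GFP control. It was 2.56-fold lower (log2 change -1.35, SE 0.27, limma adjusted p = 0.0179). The probe set 201466_s_at was 1.69-fold lower (log2 change -0.76, SE 0.17, limma adjusted p = 0.0279). The fourth, 213281_at, read 6.23, 6.47 and 6.49 in the arrays labelled GATA3 and 6.63, 6.60 and 6.53 in the GFP control. Its groups did not overlap, but its log2 change of -0.19 (95% interval -0.43 to 0.05) did not pass, with a limma adjusted p = 0.204. JUN thus fell by 3 of 4 probe sets, and the only one with the plain suffix _at did not pass. The call of 201466_s_at was lost without replicate 2 of the arrays labelled GATA3 (adjusted p = 0.0505) or any GFP control array (0.0855, 0.101 and 0.0874), and that of 201465_s_at without GFP control replicate 2 or 3 (0.0680 and 0.0627).

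JUND is the JUN-family gene that is known for steady expression in resting and growing cells (chromosome 19, 18279694 to 18281622). Its brightest probe set (203752_s_at) read 10.90, 10.98 and 10.80 in the arrays labelled GATA3, against 11.29, 11.37 and 11.50 in the GFP control. All arrays labelled GATA3 were lower. The log2 change was -0.49 (SE 0.08, 95% interval -0.68 to -0.30), 1.41-fold lower, with a limma adjusted p = 0.00752. Of the 2 dimmer tested probe sets, 203751_x_at read 6.57, 6.57 and 5.46 in the arrays labelled GATA3 and 7.02, 6.60 and 6.65 in the GFP control. Its log2 change of -0.56 (SE 0.34) did not pass, with a limma adjusted p = 0.271, and replicate 3 lay more than 1 unit under the other arrays of its group. The same array alone fell under the detection level in 214326_x_at, at 3.50 beside 4.68 and 4.91, with 5.24, 4.91 and 5.19 in the GFP control (log2 change -0.75, limma adjusted p = 0.206). The remaining probe set, 229117_s_at, read 2.20 on all arrays. The fall of JUND rests on 1 of its 3 tested probe sets, and with the mean of the 3 in its place the adjusted p was 0.112 (log2 change -0.60).

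JUNB, an immediate early JUN protein that can oppose JUN (chromosome 19, 12791486 to 12793315), read 7.93, 8.02 and 7.94 in the arrays labelled GATA3, against 7.94, 7.86 and 8.07 in the GFP control. The groups overlapped. The log2 change was 0.01 (SE 0.08), with a 95% interval of -0.19 to 0.21 and a limma adjusted p = 0.963. The interval leaves room for a change of that size in either direction.

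**Figure D2:**
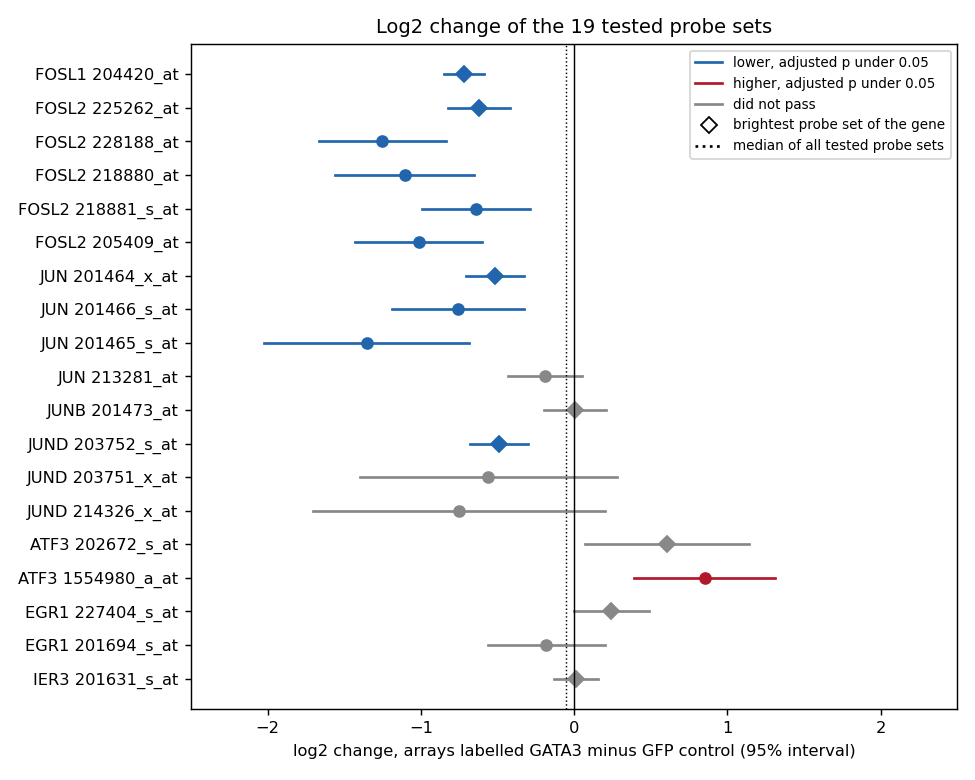
Log2 change (arrays labelled GATA3 minus GFP control) with its unadjusted 95% interval for the 19 tested probe sets, in the order FOS subunits, JUN subunits, ATF3, EGR1 and IER3. Blue marks an adjusted p under 0.05 and lower, red higher, grey not passed; a diamond is the brightest probe set of a gene and the dotted line the median of all tested probe sets (-0.05). All 5 FOSL2 probe sets lie left of 0, and the 2 dimmer JUND probe sets have the widest intervals reaching over 0.

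ATF3 belongs to the CREB/ATF family, pairs with JUN proteins and is known for its induction by stress (chromosome 1, 212565407 to 212620777). Its brightest probe set (202672_s_at) read 7.44, 7.21 and 6.70 in the arrays labelled GATA3, against 6.34, 6.46 and 6.73 in the GFP control. Replicates 1 and 2 of the arrays labelled GATA3 were above every GFP control array, and replicate 3 was not. The log2 change was 0.61 (SE 0.22) and did not pass, with a limma adjusted p = 0.0967. Without replicate 3 of the arrays labelled GATA3, which leaves raw files of 1 date, it was 0.81 with an adjusted p = 0.0195. It also passed after quantile normalization and with each array centred on its 75th percentile (adjusted p = 0.0172 and 0.0142). A dimmer probe set (1554980_a_at) read 4.87, 5.06 and 5.47 in the arrays labelled GATA3, where replicate 3 was the highest, against 4.33, 4.06 and 4.46 in the GFP control. It rose 1.80-fold (log2 change 0.85, SE 0.19, limma adjusted p = 0.0238), with GFP control values close to the detection level. That call was lost without replicate 2 of the arrays labelled GATA3 (adjusted p = 0.0653) and without GFP control replicate 1, 2 or 3 (0.0720, 0.0816 and 0.0548). The probe set 1554420_at stood at the floor of 2.16 on all arrays. Both tested ATF3 probe sets were thus higher on average in the arrays labelled GATA3, and only the dimmer passed. The only probe sets of JUNB and IER3 were also higher on average, each by 0.01 log2 units, and did not pass.

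EGR1 encodes a zinc finger factor that SRF switches on beside FOS (chromosome 5, 138465479 to 138469303). Its brightest probe set (227404_s_at) read 8.77, 8.51 and 8.66 in the arrays labelled GATA3, against 8.48, 8.46 and 8.27 in the GFP control. The groups did not overlap, yet the log2 change of 0.24 (SE 0.10, 95% interval -0.0016 to 0.49) did not pass, with a limma adjusted p = 0.130. The probe set 201694_s_at read the same 5.45 on replicate 1 of the arrays labelled GATA3 and on GFP control replicates 1 and 2, and 5.42, 5.44 and 5.96 on the others. Its log2 change was -0.18 (limma adjusted p = 0.420), so the 2 probe sets differed in sign. The third, 201693_s_at, lay at 2.16 to 2.17 on all arrays.

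IER3, an early response gene known to affect cell survival (chromosome 6, 30743199 to 30744547), lay well over the detection level in both groups. It read 13.23, 13.17 and 13.05 in the arrays labelled GATA3, against 13.15, 13.19 and 13.07 in the GFP control. The groups overlapped, with a log2 change of 0.01 (SE 0.06, 95% interval -0.13 to 0.15, limma adjusted p = 0.906).

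**Figure D3:**
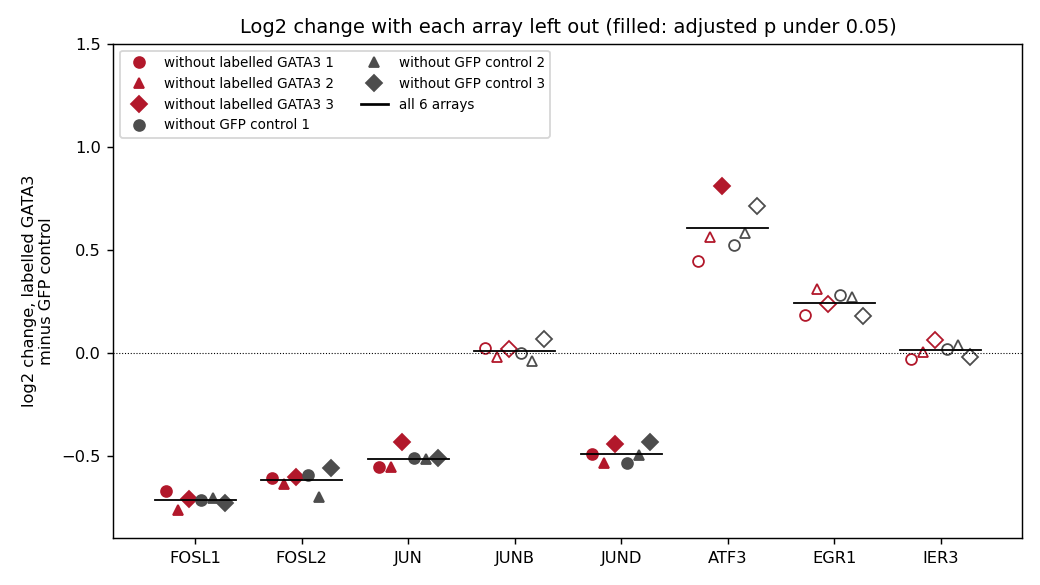
Log2 change of the brightest probe set of each of the 8 tested genes with 1 array left out at a time. Red symbols leave out an array labelled GATA3, dark symbols a GFP control array, bars show all 6 arrays, and filled symbols have an adjusted p under 0.05. FOSL1, FOSL2, JUN and JUND stay filled in all 6, and ATF3 is filled without replicate 3 of the arrays labelled GATA3.

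Related genes were counted from lists, 1 probe set per gene, beside the 14.8% of all genes tested that were called higher and the 14.5% called lower. Other bZIP genes that can pair with AP-1 proteins (12 listed, 7 tested) had 1 fall and no rise by limma, with 1 higher at an unadjusted p under 0.05 (MAFF), and a median log2 change of -0.01. The member that fell was BATF3, a factor that pairs with JUN proteins. It read 7.42, 7.13 and 7.67 in the arrays labelled GATA3, against 8.43, 8.20 and 8.39 in the GFP control, 1.91-fold lower (limma adjusted p = 0.00963). JDP2, ATF2 and MAFF, with log2 changes of -0.26, -0.01 and 0.14, did not pass.

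Other immediate early genes went both ways. Of 36 listed, 31 were tested, 7 rose, 7 fell and 17 did not pass, with a median log2 change of 0.03. SGK1, a serum- and glucocorticoid-regulated kinase, rose 8.09-fold, with 13.40, 13.38 and 13.14 in the arrays labelled GATA3 and 10.33, 10.31 and 10.25 in the GFP control (limma adjusted p = 1.64e-05). DUSP2, a nuclear phosphatase of mitogen-activated protein kinases, read 6.93, 6.64 and 7.00 in the arrays labelled GATA3 and the same 4.03 on all 3 GFP control arrays. It rose by 2.83 on the log2 scale (limma adjusted p = 6.02e-05), and its level in the GFP control, barely over detection, is uncertain. RHOB, an immediate early small GTPase, fell 3.24-fold by its brightest probe set, with 6.41, 6.46 and 5.69 in the arrays labelled GATA3 and 7.83, 7.72 and 8.11 in the GFP control (limma adjusted p = 0.00558). Its other, dimmer probe set had a log2 change of -0.18 and did not pass (limma adjusted p = 0.175). KLF2, a zinc finger factor, fell 2.02-fold, with 8.80, 8.90 and 8.80 in the arrays labelled GATA3 and 9.96, 9.64 and 9.94 in the GFP control (limma adjusted p = 0.00176). Replicates 1 and 3 of the arrays labelled GATA3 gave the same value for KLF2, so its low level and the fold are uncertain. The lower count was 4 without replicate 2 of the arrays labelled GATA3 or GFP control replicate 1, and with each array centred on its 75th percentile.

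SRF and the factors that work with it or with EGR1 had 9 of 9 genes tested, of which 1 rose, 2 fell and 6 did not pass. SRF itself had a log2 change of -0.04 (limma adjusted p = 0.736). ELK3, a ternary complex factor that can repress SRF targets, fell 1.60-fold, with 11.57, 11.63 and 11.54 in the arrays labelled GATA3 and 12.13, 12.29 and 12.34 in the GFP control (limma adjusted p = 0.00140). Its other probe set fell too, by 1.05 on the log2 scale. ELK4, a related factor, had a log2 change of -0.27 (limma adjusted p = 0.0270), with 1 of its 3 other probe sets also lower. NAB1, a corepressor of EGR proteins, rose 1.36-fold, with 9.58, 9.48 and 9.46 in the arrays labelled GATA3 and 9.11, 8.97 and 9.11 in the GFP control (limma adjusted p = 0.00729). Of its 2 other probe sets, 1 rose. The lower count was 1 without replicate 2 of the arrays labelled GATA3 or any 1 GFP control array, and the higher count was 2 without replicate 3 of the arrays labelled GATA3.

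Of 10 tested kinases that carry signals to AP-1 (18 listed), 4 rose, 1 fell and 5 did not pass. RPS6KA5, which encodes MSK1, a kinase that modifies chromatin at immediate early genes, read 9.76, 9.66 and 9.28 in the arrays labelled GATA3, against 8.01, 7.99 and 7.95 in the GFP control. It rose 3.00-fold (limma adjusted p = 0.000949), and its other probe set rose by 1.48 on the log2 scale. MAPK8, which encodes JNK1, the kinase that phosphorylates JUN, rose 1.33-fold with a limma adjusted p = 0.0122, and its 2 other probe sets rose by 0.67 and 0.58 on the log2 scale. RPS6KA3, the RSK2 kinase gene, rose 1.33-fold (limma adjusted p = 0.00438), and MAP2K2, which encodes the ERK kinase MEK2, fell 1.38-fold (limma adjusted p = 0.00392). Phosphorylation was not measured. The higher count was 2 without GFP control replicate 3.

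Genes known as AP-1 targets also went both ways. Of 30 listed, 22 were tested, 5 rose, 6 fell and 11 did not pass, with a median log2 change of -0.03. The collagenase gene MMP1, whose promoter is a classical AP-1 target, read 8.28, 8.07 and 8.02 in the arrays labelled GATA3, against 4.82, 5.06 and 5.47 in the GFP control, 8.04-fold higher. The stromelysin gene MMP3, at 7.12, 6.74 and 6.79 in the arrays labelled GATA3, was under the detection level on all GFP control arrays and so at least 7.39-fold higher (at least 3.69-fold with a detection level of 5). Both rose while FOSL1, FOSL2, JUN and JUND fell on the same arrays, and 6 other listed targets fell with those members. AP-1 protein and its binding were not measured, and a link between members and targets was not tested. The cytokine gene IL11 read 5.64, 5.64 and 5.33 in the arrays labelled GATA3, against 7.90, 9.04 and 8.11 in the GFP control, 7.05-fold lower, and its dimmer probe set changed by -0.59 on the log2 scale. Replicates 1 and 2 of the arrays labelled GATA3 gave the same value for the brighter probe set, so its low level and the fold are uncertain. The gap junction gene GJA1 was under the detection level on all arrays labelled GATA3 and averaged 9.22 in the GFP control, at least 37.3-fold lower (at least 18.6-fold with a detection level of 5). The limma adjusted p-values of MMP1 and IL11 were 0.000287 and 0.00247. MMP3 and GJA1 passed the filter on low values only through the group where they were high. Their limma adjusted p-values, 2.06e-05 and 0.000117, rest on values under detection in the other group and add no support.

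**Figure D4:**
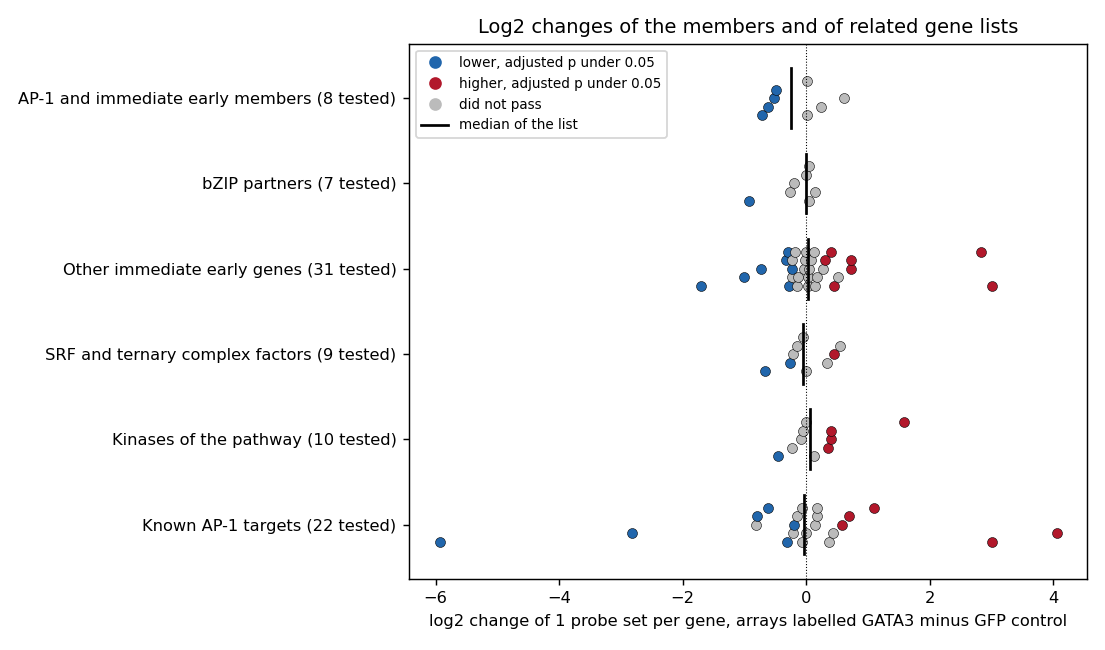
Fitted log2 change of 1 probe set per gene (arrays labelled GATA3 minus GFP control) for the 8 tested members and for the related gene lists, with the number tested beside each name. Blue is lower and red higher at an adjusted p under 0.05, grey did not pass, black bars are list medians, and the outermost points of the AP-1 targets, GJA1 and MMP3, are fitted values with 1 group under detection. The 4 called members lie between -0.72 and -0.49, and the other immediate early genes and the AP-1 targets spread to both sides.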

How the data were processed

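Gene expression was measured on 6 single-colour arrays. The authors deposited GCRMA expression values, as the submitters' processing notes state. Its version is not given in the sources used here. No header states their scale, and they were read as log2 because the deposited log2 values span the range that GCRMA gives. Many probe sets lie at 1 shared floor after GCRMA, and a probe set can repeat a higher value of its own. Values were used as deposited. Testing was limited to probe sets over 4 in at least 3 of the 6 arrays, which left 23785, without 62 control probe sets. Groups were compared with limma 3.58.1 in R 4.3.3 (lmFit, eBayes with an intensity trend, no covariates), with Benjamini-Hochberg adjustment over all tested probe sets and a threshold of 0.05. A fold against a group with no array over 4 is a lower bound against 4. A gene was represented by its brightest tested probe set. From each related list, up to 4 genes with the largest change past the threshold and no overlap between groups were named; JDP2, ATF2, MAFF and SRF were added after their values were seen, as genes that did not pass. The members, lists and promoter motifs were chosen with earlier results of these data known. With 3 arrays against 3, an exact permutation test cannot go below a two-sided p of 0.1. The 4 members that fell reach it, as does every gene whose groups do not overlap, 49.5% of all genes tested. Replicate numbers were not taken as pairs: the deviations of same-numbered arrays correlated at -0.13, 0.16 and -0.11. Other scalings, filters, variance models, array weights, probe set rules and each array left out were tried.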

Additional observations from a re-analysis of the deposited data

How the results depend on the processing

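FOSL1 and FOSL2 kept their fall and their side of the threshold under all 18 alternatives, with log2 changes of -0.77 to -0.63 and -0.93 to -0.53. JUN did so in 17 of 18 and JUND in 16 of 17. The exceptions were JUN with _at probe sets alone (-0.19, adjusted p = 0.204) and JUND with the mean of its probe sets (-0.60, adjusted p = 0.112). The count of lower members was thus 2 with _at probe sets alone, where JUND, ATF3, EGR1 and IER3 had no tested probe set. It was 4 without any 1 array. ATF3 passed, making the count of higher members 1, after quantile normalization (0.68, adjusted p = 0.0172), after 75th percentile centring (0.69, 0.0142), with array weights (0.70, 0.00294), with the mean of its probe sets (0.73, 0.00306) and without replicate 3 of both groups (0.92, 0.0239), an alternative chosen after seeing the data. With 1 array left out its log2 change was 0.44 to 0.81, and the count of higher members 0 to 1. EGR1 did not pass under any of 17. The sign of JUNB (-0.042 to 0.065) and IER3 (-0.029 to 0.059) turned with the array left out, and neither passed. With 1 array left out, probe sets called higher numbered 1796 to 3581 and lower 1801 to 3752, where fewer samples enter each fit. Lower probe sets numbered 1767 when no low values were filtered out and 2106 with a replicate block. With array weights, whose estimate did not converge, 5195 were higher and 6642 lower. In the replicate block 2022 were higher, all 4 lower members passed, and 218881_s_at of FOSL2 did not (adjusted p = 0.0929). Arrays of the 2 groups share only a number, and not every array correlated best with its own. For bZIP partners, 1 rose after quantile, cyclic loess or 75th percentile scaling, 2 with array weights and 0 to 1 with 1 array left out. Of other immediate early genes, 11 rose with array weights, 4 fell after 75th percentile centring and 4 to 7 with 1 array left out. Of the SRF list, 3 rose after quantile or 75th percentile scaling or with array weights, 2 without replicate 3 of both groups and 1 to 2 with 1 array left out. In that list 1 fell after 75th percentile centring, without the filter, with the replicate block or without replicate 3 of both groups, and 1 to 2 with 1 array left out, while 3 fell with array weights. Kinases called higher numbered 2 to 4 with 1 array left out. Of AP-1 targets, 8 rose with array weights and 3 fell with _at probe sets alone. A detection level of 5 changed no fold of a member's brightest probe set, but the dimmer ATF3 probe set 1554980_a_at became at least 1.10-fold higher. With that level DUSP2 was at least 3.63-fold and MMP3 at least 3.69-fold higher, and GJA1 at least 18.6-fold lower. Dim signal limits FOS and FOSB, which could not be tested.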

Other observations

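ATF3 and FOSL1 had the widest range over the 6 arrays among the tested members, 1.10 and 0.82 log2 units. After each probe set was centred on its mean, the gene closest to FOSL1 was OAF, with a root-mean-square distance of 0.0145 log2 units over the 6 arrays, followed by SLC7A5 (0.0366) and USB1 (0.0391). Their log2 changes were -0.69, -0.70 and -0.72, beside -0.72 for FOSL1. The genes closest to ATF3 were CCSER2 (0.0544), MOCOS (0.0879) and ARRDC4 (0.0893), and like ATF3 none of the 3 passed the test. These distances describe 6 arrays in 2 groups, and many genes with a change of like size share such a pattern.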
